A study of Mus musculus with 4 samples.

Results

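The genes described are 38 genes of DNA replication, taken by symbol from a list whose rule used no measured value, out of 55418 gene entries in the tables. The list was nevertheless chosen with earlier results of these data known. They were followed across thymic cells profiled by single-cell RNA sequencing with a droplet 3' method, which counts unique molecular identifiers (UMIs, single captured RNA molecules). All animals were C57BL/6 mice killed by CO2, and the cells were sorted from digested, Percoll-enriched thymus. Both MAFIA libraries came from 5-week-old mice of genotype Csf1r-EGFP-NGFR/FKBP1A/TNFRSF6, a transgene that drives EGFP and an inducible suicide receptor from the promoter of Csf1r, and GFP+ cells were sorted. Both Cd11cYFP libraries came from 9-week-old mice of genotype Itgax-Venus, in which the promoter of Itgax (CD11c) drives the YFP variant Venus, and YFP+ cells were sorted. The study's methods name 1 female MAFIA and 2 male Cd11cYFP mice, so reporter, age and sex cannot be told apart, and whether the 2 MAFIA libraries came from separate mice is not given in the sources used here.

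Replication begins with licensing, in which Cdc6 and Cdt1 load the ring-shaped helicase of Mcm2 to Mcm7 onto origins in G1. At the start of S phase Mcm10, Cdc45 and the GINS complex (Gins1, Gins2) turn this ring into an active helicase, the primase-polymerase alpha unit (Prim1, Pola1) lays primers, and polymerases delta (Pold1) and epsilon (Pole) copy the strands, held by the sliding clamp Pcna that Rfc proteins load. Ribonucleotide reductase (Rrm1, Rrm2), Tyms, Tk1 and Dut supply deoxynucleotides. E2F transcription factors switch most of these genes on as a cell enters the cycle. In the thymus, the double-negative and early double-positive thymocytes are known for their rapid division, whereas dendritic cells (DCs) that have upregulated Ccr7 are mature migratory cells.

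The genes were detected in all 4 libraries, 38 of 38 in each. Total depth was 26876378 UMIs in MAFIA replicate 1 and 126700210 to 185882793 in the other 3 libraries. MAFIA replicate 1 stood apart with a median of 3980.5 UMIs per barcode against 15759 to 17493, and when it was clustered with the rest, 5355 of its cells fell in 1 mixed cluster, so it enters no comparison of cell classes. Any 2 libraries shared 10 to 25 cell barcodes. In the other 3 libraries, cells were clustered without the 38 genes and without other cell cycle genes, and clusters were named from marker genes as 9 classes. Although every sample is labelled as myeloid cells, 980, 1059 and 1134 cells of these libraries were B cell-like and 380, 514 and 306 thymocyte-like. The monocyte-like cluster was led by S100a9 and S100a8, genes of neutrophils, and the 7 neutrophil markers summed to 1980 CPM (UMIs scaled to 1000000 UMIs of the class in that library) in its MAFIA replicate 2 cells against 57.3 and 34.9 in its Cd11cYFP cells. The 8 monocyte markers summed to 13077, 7290 and 4832 CPM in monocyte-like cells (MAFIA replicate 2, then Cd11cYFP replicates 1 and 2). In both Cd11cYFP libraries, Cd209a+ DC-like (7383 and 5273) and plasmacytoid DC-like cells (7611 and 6124) had more. The 6 Cd209a+ DC markers summed to 2594, 944 and 1968 in their own class and 1384, 1239 and 1225 in Timd4+ macrophage-like cells. Names rest on mean z-scores over markers, not on sums.

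Sequences upstream of these genes are shown because E2F sites define much of the group as it is known. Promoters from 250 bases before to 50 after the annotated start (RefSeq, GRCm38.p6) were found for 31 of the 38 genes, 36 promoters in all. The strict E2F elements TTTCGCGC, TTTGGCGC, TTTCCCGC and TTTGCCGC were searched on both strands, where the first and second can overlap on opposite strands. One or more was present in 12 of the 36 promoters (33.3%), and in 2.26% of all 32851 mouse promoters of the same length. By element, TTTCGCGC was in 6, TTTGGCGC in 5, TTTCCCGC in 5 and TTTGCCGC in 0 of the 36. The following windows of at most 30 bases are those of 6 licensing genes that hold an element, and of Uhrf1 and Pold1, whose levels departed from the others among DCs. Each is written 5' to 3' on the strand that carries the element, with the element in capitals.
Mcm3, chr1:20820263-20820285, minus strand, the gene's own strand: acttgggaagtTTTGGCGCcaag
Mcm5, chr8:75109345-75109374, plus strand, the gene's own strand: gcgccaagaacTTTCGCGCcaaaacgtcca
Mcm6, chr1:128359734-128359763, minus strand, the gene's own strand: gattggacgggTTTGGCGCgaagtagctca
Mcm7, chr5:138171849-138171878, minus strand, the gene's own strand: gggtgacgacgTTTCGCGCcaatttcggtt
Cdc6, chr11:98908002-98908031, minus strand, opposite to the gene: accccaggcgaTTTCCCGCtctccaccggc
Cdt1, chr8:122568036-122568064, plus strand, the gene's own strand: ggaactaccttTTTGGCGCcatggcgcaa
Uhrf1, chr17:56304117-56304146, plus strand, the gene's own strand: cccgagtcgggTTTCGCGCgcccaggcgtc
Pold1, chr7:44548766-44548787, plus strand, opposite to the gene: gctTTTCCCGCcacaagatacg

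The position of the elements varied among these genes. Counted along the gene's strand, the first base of the element shown lay at -153 from the annotated start in Mcm5, at -138 in Cdc6, at -47 in Mcm6, at -185 in Uhrf1, and after the start in Mcm7 (16), Cdt1 (32), Mcm3 (38) and Pold1 (39). Further elements, not shown, lay at -149 in Mcm5, at -106 and -110 in Mcm6, at -165 in Mcm7 and at 19 in Mcm3. The other carriers were Clspn, Hells, Lig1 and Pola1. The CCAAT box was in 20 of the 36 promoters (55.6%) against 37.4% of all promoters, and the CHR element (TTTGAA or TTCGAA) in 5 (13.9%) against 19.2%. A match describes letters in this window and does not show that a factor binds there. The 38 genes lie on 14 chromosomes, with at most 6 on one of them, chromosome 5.

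Summed over the 38 genes, levels differed widely between classes. Values for MAFIA replicate 2, Cd11cYFP replicate 1 and Cd11cYFP replicate 2 are given in that order throughout, and levels are in CPM. Thymocyte-like cells had 5057, 2886 and 3565 CPM, and the other classes all stayed below 2000. B cell-like cells had 1897, 1426 and 1480, Xcr1+ DC-like cells (the cross-presenting type) had 1556, 1658 and 1454, and Cd209a+ DC-like cells had 1562, 1281 and 1276. These 3 classes overlapped in their levels. Cx3cr1+ macrophage-like cells had 1001, 941 and 1067, monocyte-like cells 704, 595 and 1027, plasmacytoid DC-like (pDC-like) cells 640, 1001 and 710, and Timd4+ macrophage-like cells 625, 603 and 733. The Ccr7+ DC-like cells were lowest in every library, with 422, 505 and 528. A sum over cells does not tell apart more dividing cells from more RNA in each of them.

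To count cells, every cell was thinned at random to 5000 UMIs, which left out no cell because all had more, and cells with 10 or more UMIs of the 38 genes were called replication-high. They made up 59.7%, 27.4% and 39.9% of thymocyte-like cells, 23.3%, 24.9% and 20.9% of Xcr1+ DC-like cells and 19.2%, 16.6% and 16.4% of Cd209a+ DC-like cells. Shares were 17.6%, 10.3% and 14.5% in B cell-like cells, 14.4%, 10.2% and 14.1% in Cx3cr1+ macrophage-like cells and 5.01%, 2.10% and 11.2% in monocyte-like cells. The lowest were 5.83%, 2.21% and 3.55% in Timd4+ macrophage-like, 3.44%, 4.93% and 3.82% in pDC-like and 1.92%, 1.92% and 2.57% in Ccr7+ DC-like cells. The mean over libraries was 3.86% ± 1.83 (SD, n = 3) in Timd4+ and 12.9% ± 2.36 in Cx3cr1+ macrophage-like cells, and 23.0% ± 1.99 in Xcr1+, 17.4% ± 1.55 in Cd209a+ and 2.14% ± 0.374 in Ccr7+ DC-like cells. All 6 class pairs compared in this report were ordered alike in all 3 libraries, although 3 pairs of values cannot pass an exact permutation test at 0.05.

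The cut divides a continuous range. Between 0.82% and 7.65% of a class's cells lay near it in any library, and with the cut at 5 or 15 UMIs the mean share of Xcr1+ DC-like cells was 37.6% or 16.1%, and that of Ccr7+ DC-like cells 9.54% or 1.15%. Without thinning, the same count of 10 UMIs gave 55.0% and 17.2%. Replication-high cells were deeper than the others before thinning, with a median of 33774 against 25143 UMIs in the Xcr1+ DC-like cells of MAFIA replicate 2, and the part of depth in the shares beyond the thinning was not tested. Free thymocyte RNA can carry replication transcripts, and the 15 thymocyte markers were counted in the same cells. The part of such RNA in the shares was not tested. Replication-high Xcr1+ DC-like cells held a mean of 0.23, 0.11 and 0.19 thymocyte UMIs per cell and the other Xcr1+ DC-like cells 0.33, 0.16 and 0.15, whereas thymocyte-like cells held 34.7 to 52.2. In replication-high Cx3cr1+ macrophage-like cells the mean was 0.40, 0.32 and 0.60 against 0.57, 0.76 and 0.76 in the rest of that class. Only 26, 7 and 10 Timd4+ macrophage-like cells were replication-high. They held a mean of 2.04, 0 and 1.30 thymocyte UMIs against 0.88, 0.96 and 0.49 in the rest of their class. Their median depth before thinning was 19181.5, 23630 and 28420 UMIs against 18311, 14173.5 and 12415.

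**Figure D1:**
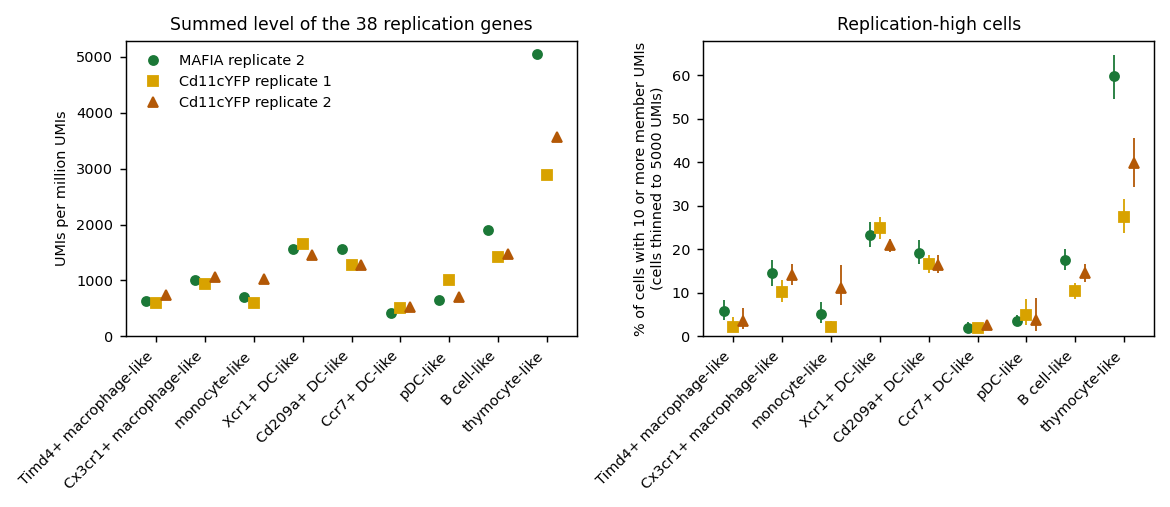
Summed CPM of the 38 replication genes (left) and percentage of replication-high cells with exact 95% binomial intervals, which cover counting error only (right), for 9 cell classes in 3 libraries (1 point each). Thymocyte-like cells lie above every other class in the left panel (2886 to 5057) and Ccr7+ DC-like cells are lowest (422 to 528).

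Gene by gene, the order of classes was similar. All 38 genes had their highest mean level in thymocyte-like cells, and for 33 of them the thymocyte-like values did not overlap those of the next class. The order was drawn up for the 38 genes only, so no share over all genes stands beside these counts. The lowest mean was in Ccr7+ DC-like cells for 28 genes, in Timd4+ macrophage-like cells for 7 and in pDC-like cells for 3. Second place went to Xcr1+ DC-like cells for 17 genes, B cell-like cells for 15, Cd209a+ DC-like cells for 3, Cx3cr1+ macrophage-like cells for 2 (E2f1 and Pcna) and Ccr7+ DC-like cells for 1 (Pold1). Pcna also serves in DNA repair. Its level was 88.5, 106 and 114 in Timd4+ macrophage-like, 104, 132 and 137 in Cx3cr1+ macrophage-like, 101, 130 and 117 in Xcr1+ DC-like and 105, 98.2 and 87.1 in B cell-like cells, which overlap, but 29.3, 41.2 and 43.5 in Ccr7+ DC-like cells. E2f1, an activating E2F factor, reached 26.4, 25.2 and 21.1 in Cx3cr1+ macrophage-like cells and 4.30, 4.21 and 5.01 in Ccr7+ DC-like cells. Ung, which removes uracil from DNA, was at 15.5, 20.4 and 26.6 in pDC-like cells, above its 9.30, 6.43 and 9.05 in Timd4+ macrophage-like cells in every library.

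**Figure D2:**
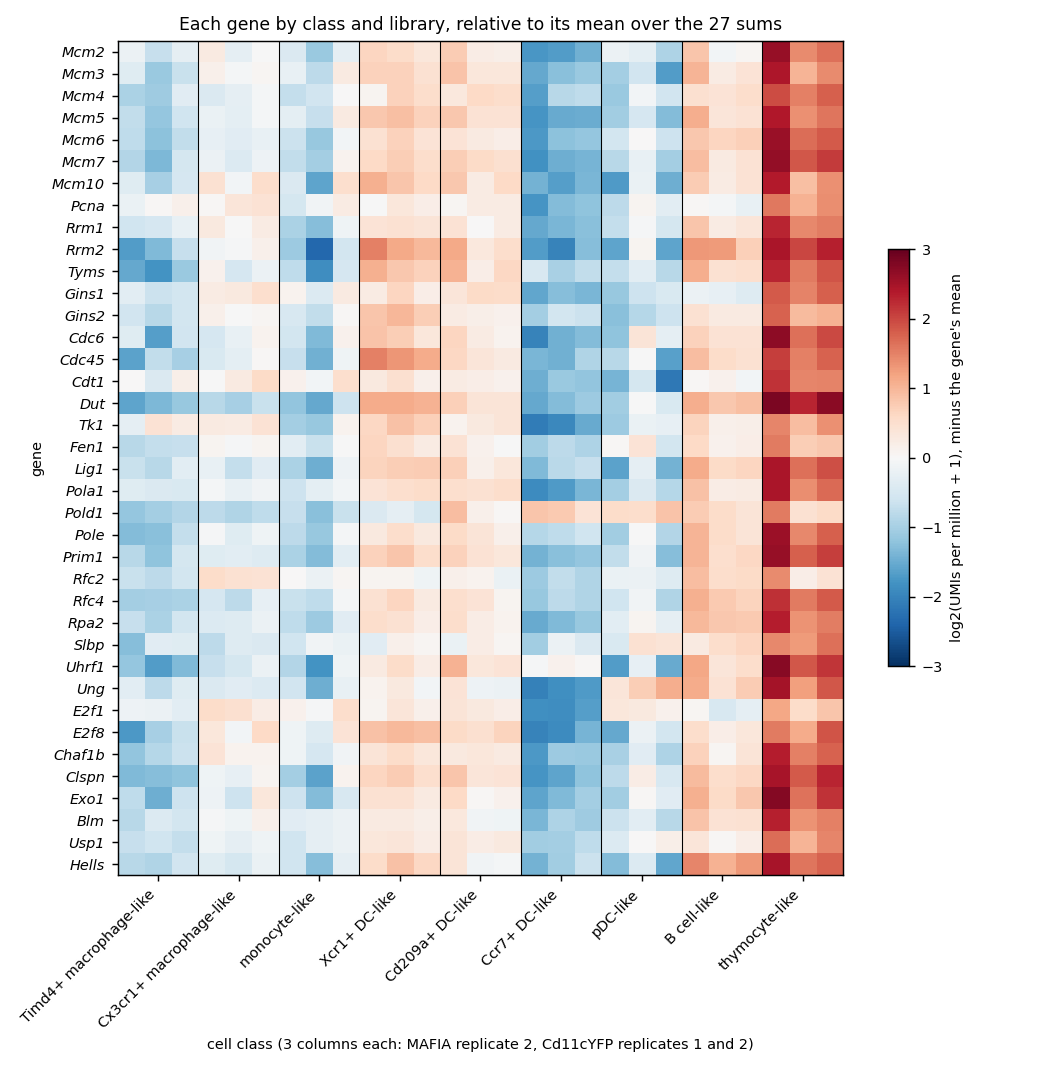
Level of each of the 38 genes (rows) in 9 classes, with 3 columns per class for MAFIA replicate 2, Cd11cYFP replicate 1 and Cd11cYFP replicate 2; color is log2(CPM + 1) minus the gene's mean over the 27 sums. The thymocyte-like columns are the highest and the Ccr7+ DC-like columns are among the lowest for most rows, and the Pold1 row departs from this.

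Differences between classes were tested on UMIs summed per class and library with edgeR's quasi-likelihood test, with library as a term, and p-values were Benjamini-Hochberg adjusted over all 16235 genes tested; a gene was called at an adjusted p under 0.05. Errors of log2 fold changes are standard errors of this fit over 3 libraries. The libraries are few and the classes of a library come from the same sorted cells. With library as a term, differences shared by all classes of a library were removed. The p-values therefore rest on how far class differences varied across these 3 libraries, pooled over all classes in the fit. They do not measure the spread between libraries or between mice.

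Among DC-like cells, replication genes were far higher in Xcr1+ than in Ccr7+ cells. Of the 38 genes, 36 were higher and 1 was lower, where 30.2% of all genes tested were called higher and 32.6% lower. The median log2 fold change was 1.85 over the 38 genes and -0.09 over all genes. All 8 licensing genes, all 5 helicase activation genes, all 5 nucleotide supply genes, 4 of 4 repair genes and both E2F genes were higher, as were 9 of 10 synthesis genes and 3 of 4 chromatin genes. Median changes were largest for the E2F genes (2.59), nucleotide supply (2.38) and helicase activation (2.26), and smallest for the chromatin genes (1.08).

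E2f8, an E2F factor that represses the same promoters later in S phase, had 19.2, 20.6 and 19.5 CPM in Xcr1+ and 1.75, 1.98 and 3.18 in Ccr7+ DC-like cells. The groups did not overlap, and the log2 fold change was 3.04 ± 0.24 (8.22-fold, edgeR adjusted p = 3.6e-10). Rrm2, the regulated subunit of ribonucleotide reductase, had 69.1, 53.2 and 46.9 against 6.70, 5.10 and 9.10 CPM, again with no overlap (log2 fold change 2.95 ± 0.35, edgeR adjusted p = 1.9e-07). Cdc45 of the active helicase had 27.1, 23.6 and 20.2 against 2.77, 2.63 and 4.28 (2.78 ± 0.27). For Tk1, thymidine kinase, the values were 35.2, 42.2 and 37.9 against 4.52, 5.18 and 7.21 (2.71 ± 0.23), and Mcm10, which helps open the helicase, had 17.0, 14.3 and 12.1 against 2.26, 1.74 and 2.37 (2.71 ± 0.34). Each of these 5 genes was higher in all 3 libraries. The licensing gene Mcm5, whose promoter element is shown above, had 63.1, 67.4 and 57.5 against 9.69, 11.8 and 12 (2.42 ± 0.22).

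Slbp, which binds histone mRNA, was the least changed of the genes called higher (0.47 ± 0.13, edgeR adjusted p = 0.0026). Uhrf1, which recruits the maintenance DNA methyltransferase to new strands, was not called. It had 34.3, 41.8 and 33.5 CPM in Xcr1+ and 27.8, 31.3 and 29.2 in Ccr7+ DC-like cells, with a log2 fold change of 0.26 ± 0.28 (edgeR adjusted p = 0.438). Pold1, the catalytic subunit of polymerase delta, went the other way. It had 19.9, 22.3 and 18.7 CPM in Xcr1+ against 49.2, 48.0 and 36.8 in Ccr7+ DC-like cells, so every Ccr7+ value was above every Xcr1+ value (log2 fold change -1.18 ± 0.18, edgeR adjusted p = 5.4e-06).

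Pold1 lies on the minus strand at chr7:44182168-44198349 (GRCm39), and the next gene, Spib, is on the same strand 672 bases beyond the 3' end of Pold1. Spib, which was named after its values were seen, is a transcription factor known from pDCs and B cells. Its levels were 2.35, 0.865 and 0.946 CPM in Xcr1+, 50.2, 51.7 and 28.9 in Ccr7+, 68.3, 31.9 and 30.2 in Cd209a+ DC-like, 428, 280 and 257 in pDC-like and 169, 117 and 107 in B cell-like cells. Pold1 was at 40.8, 39.8 and 50.4 in pDC-like, 47.1, 40.4 and 36.1 in B cell-like and 52.7, 30.5 and 27.9 in Cd209a+ DC-like cells. In thymocyte-like cells, Pold1 was at 82.2, 38.1 and 41.5 with Spib at 8.72, 2.16 and 4.36. The Pold1 levels of pDC-like cells overlapped those of Ccr7+ DC-like cells. Spib was at 257 to 428 in pDC-like and at 28.9 to 51.7 in Ccr7+ DC-like cells. Whether the levels of Spib and Pold1 are linked was not tested.

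Cd209a+ DC-like cells, the other conventional type, also exceeded Ccr7+ DC-like cells. Here 35 of the 38 genes were higher and 1 was lower, against 29.1% and 27.5% of all genes, and the median log2 fold change was 1.40 (0.01 over all genes). The 5 largest changes were those of E2f8 (2.39 ± 0.24), Mcm10 (2.12 ± 0.35), Rrm2 (2.11 ± 0.35), Pola1 (2.02 ± 0.20) and Gins1 (1.97 ± 0.19), each higher in all 3 libraries. Pola1, the catalytic subunit of the priming polymerase, had 21.9, 21.2 and 22.3 CPM against 3.35, 3.97 and 5.16, and the GINS gene Gins1 had 9.67, 11.4 and 11.1 against 1.82, 2.43 and 2.23. Neither gene's groups overlapped. Pold1 was lower again (-0.64 ± 0.18, edgeR adjusted p = 0.0037), while Slbp (0.26 ± 0.13) and Uhrf1 (0.24 ± 0.29) were not called. Without Cd11cYFP replicate 1, the Pold1 change was -0.51 and no longer called (edgeR adjusted p = 0.079). Both comparisons share the Ccr7+ cells. They hold 1 deep cluster with a median of 26634 to 33576 UMIs per cell and 735, 1206 and 1246 CPM of the 38 genes, and without it the counts were 36 higher and 1 lower against Xcr1+, and 35 and 1 against Cd209a+ cells.

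Between Xcr1+ and Cd209a+ DC-like cells differences were smaller. Of the 38 genes 13 were higher in Xcr1+ cells and 1 was lower, against 19.9% and 22.0% of all genes, with a median log2 fold change of 0.42 (-0.01 over all genes). Nucleotide supply gave 4 of its 5 genes (Rrm2, Tyms, Tk1 and Dut) and licensing 2 of 8 (Mcm5 and Mcm6). Cdc45 had 27.1, 23.6 and 20.2 against 14.0, 11.6 and 10.9 CPM (1.24 ± 0.24), without overlap. Gins2, another GINS subunit, had 32.8, 37.4 and 31.0 against 21.5, 20.7 and 20.0 (0.98 ± 0.16), also without overlap. Dut, which removes dUTP, had 151, 150 and 142 against 114, 90.2 and 89.8 (0.88 ± 0.18), and Hells, a chromatin remodeler, had 52.7, 66.4 and 55.8 against 47.4, 32.9 and 34.2 (0.91 ± 0.22). Rrm2 (0.84 ± 0.32, edgeR adjusted p = 0.037) overlapped between the classes and was not called without Cd11cYFP replicate 1 (adjusted p = 0.058) or 2 (adjusted p = 0.12). The count of genes higher was 6 without either of these libraries. Pold1 was lower in Xcr1+ cells (-0.54 ± 0.18), but without MAFIA replicate 2 the change was -0.29 and not called (edgeR adjusted p = 0.099).

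The Xcr1+ class held 2 clusters. One, led by Naaa and Gcsam, had 2170, 1888 and 1687 CPM of the 38 genes and 34.6%, 28.9% and 25.4% replication-high cells. The other, led by Mt3, Cd207 and Itgae, had 1159, 1170 and 1129 CPM and 16.4%, 16.3% and 14.9%, lower in each library and at a similar depth per cell.

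**Figure D3:**
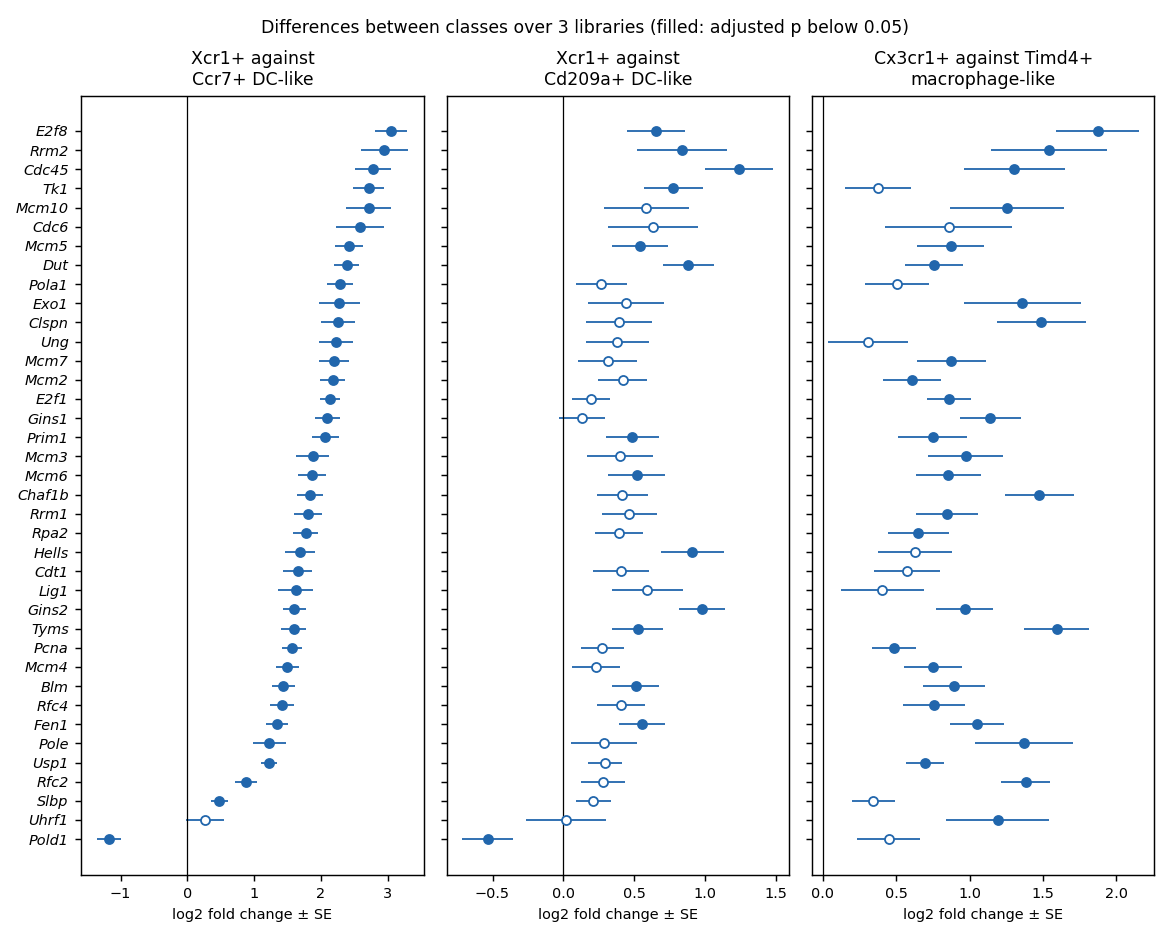
Log2 fold change ± SE of each of the 38 genes in 3 comparisons of classes (edgeR, 3 libraries per class, genes ordered by the first panel); filled points had an adjusted p under 0.05. In the first panel 36 genes lie right of 0 and filled and Pold1 is filled at -1.18, in the second 13 are filled right of 0, and in the third 29 are filled, all right of 0.

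The 2 macrophage populations also differed. Cx3cr1+ macrophage-like cells exceeded Timd4+ cells in 29 of the 38 genes and were lower in 0, against 16.8% and 13.9% of all genes, with a median log2 fold change of 0.86 (0.03 over all genes). All 5 helicase activation genes, both E2F genes, 6 of 8 licensing, 7 of 10 synthesis, 4 of 5 nucleotide supply, 3 of 4 repair and 2 of 4 chromatin genes were higher. E2f8 had 12.8, 9.40 and 15.5 CPM in Cx3cr1+ and 2.33, 4.48 and 5.87 in Timd4+ cells, without overlap (1.87 ± 0.28, 3.66-fold, edgeR adjusted p = 2.1e-05). Tyms, thymidylate synthase, had 37.7, 23.9 and 30.4 against 11.2, 9.16 and 15.4 (1.60 ± 0.22), and Rrm2 had 21.8, 23.0 and 26.0 against 6.65, 8.77 and 14.2 (1.54 ± 0.40). Clspn, a checkpoint and fork protein, had 16.7, 15.4 and 19.5 against 6.76, 7.02 and 7.34 (1.49 ± 0.30), and Chaf1b, a histone chaperone at the fork, had 16, 12.8 and 12.8 against 4.65, 6.04 and 7.09 (1.48 ± 0.24). None of these 4 genes overlapped between the populations.

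The 9 genes not called were Cdc6, Cdt1, Tk1, Lig1, Pola1, Pold1, Slbp, Ung and Hells. Tk1 had 27.3, 26.7 and 31.0 CPM in Cx3cr1+ and 18.6, 31.0 and 26.9 in Timd4+ cells (0.38 ± 0.23, edgeR adjusted p = 0.24). Without Cd11cYFP replicates 1 or 2, or MAFIA replicate 2, between 20 and 29 genes were higher. Both populations held thymocyte RNA at overlapping levels, 202, 198 and 120 CPM in Timd4+ and 115, 141 and 169 in Cx3cr1+ cells for the 15 markers together.

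Few of these genes were called between monocyte-like and Cx3cr1+ macrophage-like cells. None of the 38 was called higher and 6 were lower, where 12.8% and 15.4% of all genes were called, so the share lower (6 of 38) was near the background. The median log2 fold change was -0.35 over the 38 genes (-0.05 over all genes), and 3 of the 38 values were above 0. The 6 were Rrm2 (-1.31 ± 0.39), Tk1 (-0.97 ± 0.24), Rrm1 (-0.90 ± 0.22), Tyms (-0.82 ± 0.21), Mcm2 (-0.58 ± 0.20) and Rfc2 (-0.45 ± 0.16), and 4 of them supply nucleotides. Rrm2 had 10.6, 3.82 and 15.8 CPM in monocyte-like and 21.8, 23.0 and 26.0 in macrophage-like cells, with no overlap, and Rrm1 had 19.4, 15.3 and 35.4 against 47.4, 38.1 and 46.1. Cd11cYFP replicate 1 held the lowest monocyte-like value for each of these 6 genes. Without that library 1 gene was called lower, whereas 14 were with cell cycle genes kept in the clustering and 10 with MAFIA replicate 1 included.

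Thymocyte-like and B cell-like cells were compared as the classes outside the myeloid label. In thymocyte-like cells 33 of the 38 genes were higher and 0 lower, against 22.0% and 24.2% of all genes (median log2 fold change 0.85, and -0.04 over all genes). Gins1 had 28.7, 22.4 and 27.7 CPM against 6.37, 6.04 and 5.39 (1.75 ± 0.18), and the licensing factor Cdt1 had 75.7, 45.9 and 46.9 against 16.6, 17.8 and 15.1 (1.37 ± 0.21). Cdc6 had 51.1, 24.6 and 30.8 against 12, 9.91 and 9.86 (1.34 ± 0.33), Dut 494, 338 and 453 against 146, 120 and 130 (1.30 ± 0.18), and Mcm2 153, 66.6 and 78.2 against 43.6, 22.9 and 25.4 (1.29 ± 0.18). All 5 were separate between the classes, and MAFIA replicate 2 was highest for each in both, except for Cdt1 in B cell-like cells. Rrm2 (0.76 ± 0.32), Fen1 (0.37 ± 0.17), Hells (0.33 ± 0.22), Pold1 (-0.04 ± 0.18) and Rfc2 (-0.32 ± 0.16) were not called.

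Most of this difference came with 1 of the 2 thymocyte-like clusters. The cluster led by Dntt, which encodes terminal transferase of T cell receptor rearrangement, had 5743, 4906 and 5263 CPM of the 38 genes and 80.3%, 68.8% and 66.7% replication-high cells. The other, led by Ms4a4b and Cd3d, had 2990, 1856 and 2131 CPM and 28.5%, 15.9% and 24.6%. Its 10 leading genes also held Xcl1 and Nkg7, the latter a marker of cytotoxic lymphocytes. Over the whole thymocyte-like class the 7 cytotoxic lymphocyte markers summed to 481, 903 and 476 CPM, against at most 180 in any other class. Without the Dntt-led cluster, 7 genes were higher and 2 lower (Pold1 -0.94, Rfc2 -0.91), with the share of all genes called not given for this setting. Thymocyte-like cells then kept the highest mean for 30 genes, whereas Xcr1+ DC-like cells were highest for Gins2, Cdc45, Tk1 and E2f8, B cell-like cells for Rfc2 and Hells, Cx3cr1+ macrophage-like cells for E2f1 and Ccr7+ DC-like cells for Pold1.

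**Figure D4:**
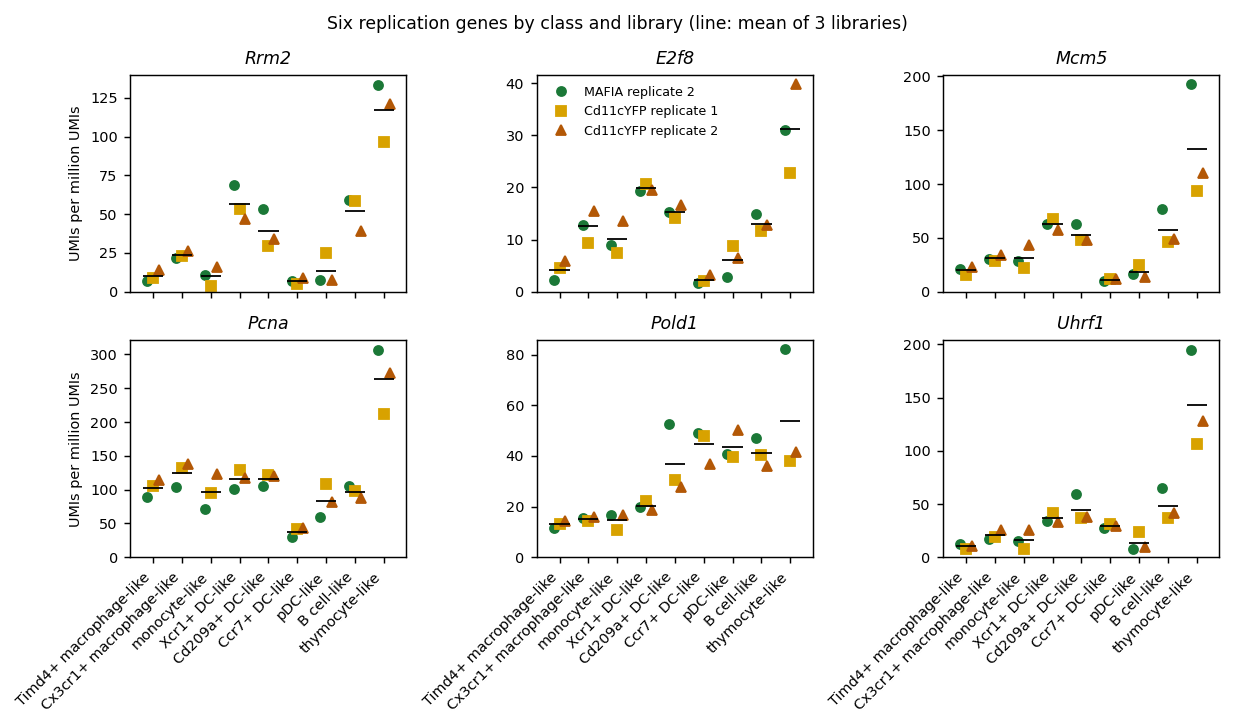
CPM of Rrm2, E2f8, Mcm5, Pcna, Pold1 and Uhrf1 in 9 classes, 1 point per library, lines at the mean of 3 libraries, with a linear axis from 0 in each panel. Rrm2, E2f8 and Mcm5 are low in Ccr7+ DC-like cells, Pcna overlaps among the macrophage-like and conventional DC-like classes, and Pold1 is higher in Ccr7+ (36.8 to 49.2) than in Xcr1+ DC-like cells (18.7 to 22.3).

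The classes were next split within themselves, by genes outside the 38. A cell was called mitosis-marked if it held 3 or more UMIs of a list of 38 mitosis genes (such as Mki67 and Top2a) after thinning, and unmarked if it held 0. Among Xcr1+ DC-like cells 322, 445 and 881 were marked and 303, 403 and 1054 unmarked, and among Cx3cr1+ macrophage-like cells 130, 116 and 199 were marked and 205, 207 and 251 unmarked. Summed over the 38 replication genes, marked Xcr1+ cells had 2763, 2681 and 2601 CPM and unmarked ones 509, 625 and 567. In Cx3cr1+ macrophage-like cells the values were 2296, 2102 and 2133 against 508, 571 and 492. Both splits separated the sides in every library, and the marked levels of the macrophage-like cells lay below those of the DC-like cells in each.

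All 38 genes were higher in marked cells of both classes, against 23.6% of all genes called higher and 24.7% lower in Xcr1+ DC-like cells, and 11.4% and 8.01% in Cx3cr1+ macrophage-like cells (edgeR within each class, 12103 and 11296 genes tested). The median log2 fold change was 2.06 and 2.11. Rrm2 changed most. In Xcr1+ cells it had 162, 118 and 118 CPM in marked and 1.34, 1.63 and 0.852 in unmarked cells, from 1684, 1671 and 2908 against 10, 15 and 18 UMIs (6.71 ± 0.11). Among Cx3cr1+ macrophage-like cells it had 79.0, 95.4 and 82.0 against 1.88, 0.712 and 0.210 CPM, from 281, 258 and 393 against 10, 3 and 1 UMIs (6.35 ± 0.23). Rrm2 was thus close to absent from unmarked cells of both classes.

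After Rrm2, the largest changes in Xcr1+ cells were those of Mcm10 (4.66 ± 0.14), Clspn (4.62 ± 0.11), Exo1 (4.30 ± 0.22) and Tk1 (4.05 ± 0.09). In Cx3cr1+ macrophage-like cells they were those of Clspn (4.59 ± 0.17), Mcm10 (3.97 ± 0.20), E2f8 (3.85 ± 0.20) and Cdc6 (3.77 ± 0.26). Clspn had 63.8, 65.1 and 61.9 CPM in marked and 2.14, 3.47 and 2.08 in unmarked Xcr1+ cells. The Mcm ring genes changed less: Mcm2, Mcm4 and Mcm6 by 1.32 ± 0.07, 1.34 ± 0.07 and 1.48 ± 0.07 in Xcr1+ cells, and by 1.92 ± 0.14, 1.68 ± 0.12 and 1.74 ± 0.09 in Cx3cr1+ macrophage-like cells. By role, the median change in Xcr1+ cells was 4.02 for helicase activation, 3.50 for nucleotide supply and 1.59 for licensing, and in Cx3cr1+ macrophage-like cells 3.29, 3.15 and 1.83. Pold1 was higher in marked Xcr1+ cells (1.92 ± 0.10), as was Uhrf1 (3.45 ± 0.09).

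In Xcr1+ DC-like and Cx3cr1+ macrophage-like cells, most replication-high cells were mitosis-marked, but many mitosis-marked cells were not replication-high. Of replication-high Xcr1+ DC-like cells 76.5%, 69.1% and 70.5% were mitosis-marked and 6.57%, 8.22% and 9.27% held no mitosis UMI after thinning. Of mitosis-marked Xcr1+ cells 50.6%, 47.2% and 47.4% were replication-high. In Cx3cr1+ macrophage-like cells 73.2%, 77.2% and 76.1% of replication-high cells were marked, and 46.2%, 37.9% and 41.7% of marked cells were replication-high. The thymocyte markers summed to 44.0, 26.7 and 36.9 CPM in marked and 57.8, 21.6 and 27.4 in unmarked Xcr1+ cells. In Cx3cr1+ macrophage-like cells they summed to 110, 186 and 193 against 98.9, 131 and 235. The direction differed between libraries in both classes. The part of thymocyte RNA in the replication levels was not tested.

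**Figure D5:**
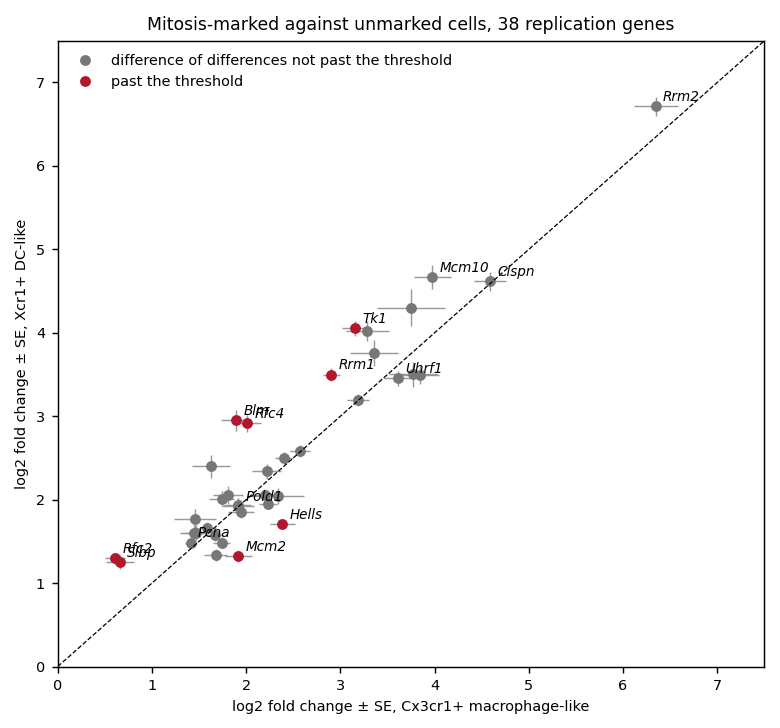
Log2 fold change ± SE between mitosis-marked and unmarked cells for each of the 38 genes, in Cx3cr1+ macrophage-like cells (x) and Xcr1+ DC-like cells (y), from 3 libraries each; the dashed line marks equal change and red points passed the test of the difference between the classes. All points lie above 0 on both axes, with Rrm2 farthest out (6.35 and 6.71), and 8 points are red.

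Class differences were then asked again in cells with no mitosis UMI only, an alternative added after the data were seen, in which Mcm10 and Exo1 were too low to test. The share of all genes called in these cells is not given here, so the counts have no background beside them. Between Xcr1+ and Ccr7+ DC-like cells 24 of 36 genes were still higher and 2 lower, with a median log2 fold change of 1.01. All 8 licensing genes remained higher, among them Mcm2 (2.04), Mcm5 (2.13) and Mcm6 (1.40), and both E2F genes (E2f1 1.86, E2f8 2.76). Of the 5 nucleotide supply genes, Dut (1.88, edgeR adjusted p = 8.8e-09) and Tk1 (0.73, edgeR adjusted p = 0.013) were higher, while Rrm2 (0.03, edgeR adjusted p = 0.96), Rrm1 (0.03) and Tyms (-0.11) were not called. Pold1 (-2.45, edgeR adjusted p = 4.3e-10) and Uhrf1 (-1.97, edgeR adjusted p = 1.6e-06) were lower in Xcr1+ cells.

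In each of the other comparisons, the count called in the main direction was a smaller part of that in all cells. Each sum held fewer cells and UMIs here, so fewer calls need not mean smaller differences. In cells with no mitosis UMI, 18 of 36 genes were higher in Cd209a+ than in Ccr7+ DC-like cells and 2 lower (Pold1 -1.14, Uhrf1 -1.28), and 6 were higher in Xcr1+ than in Cd209a+ cells and 1 lower. Cx3cr1+ macrophage-like cells exceeded Timd4+ cells in 11 genes, with E2f8 (2.52), Chaf1b (1.40), Cdc45 (1.37), Rfc2 (1.35), Gins1 and Tyms (both 1.14) the largest, and Tk1 was lower (-0.72). Monocyte-like cells had 1 gene higher than Cx3cr1+ macrophage-like cells (E2f8, 1.27) and 2 lower (Tk1 and Rrm1). Thymocyte-like cells had 10 genes higher than B cell-like cells and 3 lower (Tk1 -1.61, Pold1 -1.36, Rfc2 -0.74).

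Genes around the 38 were read from 3 further lists. Of 62 other replication genes, 52 were higher and 4 lower in Xcr1+ than in Ccr7+ DC-like cells, 44 and 5 in Cd209a+ against Ccr7+, 21 and 1 in Xcr1+ against Cd209a+, 38 and 1 in Cx3cr1+ against Timd4+ macrophage-like cells, 5 and 7 in monocyte-like against Cx3cr1+ macrophage-like cells, and 44 and 2 in thymocyte-like against B cell-like cells. Of the 38 mitosis genes, the same 6 comparisons had 38, 37, 14, 37, 0 and 34 higher, and 0, 0, 0, 0, 28 and 0 lower. For the 21 cell cycle inhibitors and G1 cyclins the counts went both ways. They were 5 higher and 10 lower, 7 and 9, 5 and 9, 5 and 1, 8 and 2, and 9 and 5. In the same order, 30.2%, 29.1%, 19.9%, 16.8%, 12.8% and 22.0% of all genes tested were called higher. Called lower were 32.6%, 27.5%, 22.0%, 13.9%, 15.4% and 24.2%. For the other replication genes in monocyte-like cells, both counts were below these shares. Several counts of inhibitors and cyclins were near them. Marked Xcr1+ DC-like cells had 55 of 62 other replication genes higher and 2 lower, and 9 of 18 inhibitors and cyclins higher and 6 lower. Marked Cx3cr1+ macrophage-like cells had 55 of 61 higher and 1 lower, and 5 of 19 higher and 2 lower. Of all genes tested, 23.6% were called higher and 24.7% lower in marked Xcr1+ DC-like cells. In marked Cx3cr1+ macrophage-like cells these shares were 11.4% and 8.01%. Among single mitosis genes, Mki67 had 205, 156 and 169 CPM in Xcr1+ and 57.3, 38.5 and 61.8 in Ccr7+ DC-like cells (1.72 ± 0.25), and Top2a had 108, 96.4 and 131 in Cx3cr1+ and 28.5, 58.5 and 35.0 in Timd4+ macrophage-like cells (1.65 ± 0.33).

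Several of the 38 genes overlap a neighbor in their exons, on the opposite strand in all cases but Mir25 and Mir93, which lie inside Mcm7 and had 0 UMIs. Examples are Tk1 with Syngr2, Mcm7 with Cops6, Rfc2 with Lat2 and Rfc4 with Eif4a2. Over the 3 libraries of the class comparisons, Lat2 had 32800 UMIs and Rfc2 28515, and Eif4a2 had 67604 and Rfc4 11305. The strand setting of the counting is not given in the sources used here, so reads of such pairs may not be told apart.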

How the data were processed

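Single-cell RNA was measured in 4 libraries of sorted thymic cells. For each library the authors deposited UMI counts per gene in every barcode already called as a cell, with no normalization. The submitters' processing notes list bcl2fastq 2.20, STAR 2.7.9a, Cell Ranger, GRCm39 and mm39, whereas the study's methods name mm10. Gene positions here are those of GRCm39, and promoter sequences, from RefSeq, those of GRCm38.p6. Depth per library is given in the report, and intervals cover counting error only. No label gives a batch.

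Barcodes with 1000 to 7000 genes and at most 10% mitochondrial UMIs were kept (5493, 6219, 7646 and 9684). Without MAFIA replicate 1, counts were scaled to 10000 per cell, logged and reduced to 2000 variable genes and 70 principal components, leaving out the 38 genes, 62 other replication, 38 mitosis and 21 inhibitor and cyclin genes, and 91 further genes, mostly histones. The graph took 3 neighbors per library, and Leiden clustering ran at resolution 1. A cluster took the name of the marker list with the highest mean z-score (at least 0.5, with at least 3 markers detected). It was left as mixed where another list had more markers among the 10 leading genes, or where the second score was at least 0.5 and reached 0.6 of the best with as many leading markers, or 0.9 of it. Mixed clusters (129, 199 and 351 cells) entered no class. Doublets stayed in, and removing the cells with the highest simulated scores was an alternative.

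UMIs were added up per class and library where 10 or more cells were present (27 sums) and tested in edgeR 4.0.16 (TMM, filterByExpr, quasi-likelihood F test, library and class as terms, 16 residual degrees of freedom) on R 4.3.3. The study's rank-sum test over cells was not used, because cells are not replicates. Each split of a class used 6 sums (2 residual degrees of freedom). Library pairs the sums, since the classes of a library come from the same sorted cells: over 108 pairs of classes, deviations of same-library sums from the class means correlated at 0.109 to 0.700 (median 0.402). All 38 genes could be named. Full statistics go to the 5 largest changes per comparison among genes called in 1 direction in every library, and to any gene moving against the majority. Spib and the further genes were named after their values were seen. Alternatives were DESeq2 1.42.0, RLE factors, no low-count filter, no library term, leaving out each library, and other clusterings, cell filters and cuts. The class fit and the split of Cx3cr1+ cells were tested on simulated counts. Python 3.11.15 with scanpy 1.11.5, leidenalg 0.10.2 and scipy 1.17.1 was used.

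The 38 genes and the other lists were chosen with earlier results of these data known. The cluster naming rule and the leaving out of histone genes were set after first clusters were seen. The motif search and the test of the difference between splits were also added after seeing the data. So were the alternatives without mitosis UMIs after thinning, without the upper gene limit, and without the Dntt-led or the deepest Ccr7+ cluster.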

Additional observations from a re-analysis of the deposited data

Results flagged for a closer look

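Groups of 3 libraries were not tested for outlying values. The change between mitosis-marked and unmarked cells differed between Xcr1+ DC-like and Cx3cr1+ macrophage-like cells for 8 of the 38 genes, by an interaction term in edgeR over both classes, against 5.85% of all 12482 genes tested. This test was added after seeing the data. The difference of log2 changes, Xcr1+ minus Cx3cr1+, was 0.69 ± 0.13 (SE, 3 libraries) for the clamp loader gene Rfc2 (adjusted p = 0.0032), 0.60 for the reductase gene Rrm1, 1.07 for the helicase gene Blm, 0.91 for Tk1, 0.91 for Rfc4 and 0.60 for Slbp, each larger in Xcr1+ cells. It was -0.67 for Hells and -0.59 for Mcm2, whose changes were larger in Cx3cr1+ macrophage-like cells. Exons of Rfc2, Rfc4 and Tk1 overlap those of Lat2, Eif4a2 and Syngr2 on the opposite strand. Reads of each pair may not be told apart. Rfc2 had 72.9, 80.5 and 63.5 CPM in unmarked and 136, 93.2 and 111 in marked Cx3cr1+ macrophage-like cells, and 34.5, 36.2 and 35.6 against 102, 93.2 and 83.9 in Xcr1+ cells, so the classes stood apart in the unmarked cells and overlapped in the marked ones. Blm likewise had 6.78, 6.17 and 6.08 CPM in unmarked macrophage-like and 2.14, 2.93 and 3.69 in unmarked Xcr1+ cells, and 26.4, 22.9 and 24.0 against 27.5, 25.2 and 25 in marked ones. For Hells the unmarked levels were lower in macrophage-like (10.4, 14.2 and 9.64) than in Xcr1+ cells (22.6, 31.0 and 26.7), and the marked levels too (62.4, 58.0 and 62.2 against 86.9, 98.8 and 90.1).

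Barcodes with over 7000 genes, which the study's filter removes, held more replication-high cells than those kept. The share was 45.3% of 64, 62.5% of 32 and 41.3% of 46 removed barcodes, against 15.4%, 11.9% and 13.9% of the kept ones. With these barcodes included, none of the 6 counts of genes called between classes moved by over 1.5 times.

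MAFIA replicate 1, which entered no class, had 11.4% replication-high cells (508 of 4454 cells) when cells were thinned to 3000 UMIs and called at 6 or more UMIs of the 38 genes, and 1039 shallower cells were left out. Its 95% exact binomial interval was 10.5% to 12.4%. The other libraries had 16.3%, 12.8% and 14.2% by the same measure.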

How the results depend on the processing

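Of 653 values under the alternatives for the genes given full statistics, 611 kept their direction and side of the threshold, 40 kept the direction but were no longer called, and 2 changed sign, both for Rrm2 in cells with no mitosis UMI: -0.75 in Cx3cr1+ against Timd4+ macrophage-like cells and -0.53 in Cd209a+ against Ccr7+ DC-like cells, neither called. Over the 216 values of the 36 genes that could be tested in cells with no mitosis UMI, 40 changed sign and 5 of these were called: Tk1 in Cx3cr1+ against Timd4+ (-0.72) and in thymocyte-like against B cell-like cells (-1.61), Uhrf1 in Xcr1+ (-1.97) and Cd209a+ (-1.28) against Ccr7+ cells, and E2f8 in monocyte-like against Cx3cr1+ cells (1.27). In the same cells 11, 2, 6, 18 and 10 genes were called in the main direction in Cx3cr1+ against Timd4+, monocyte-like against Cx3cr1+, Xcr1+ against Cd209a+, Cd209a+ against Ccr7+ and thymocyte-like against B cell-like cells (29, 6, 13, 35 and 33 in all cells). Without the Dntt-led cluster the last was 7. Counts under these alternatives are given without the share of all genes called. For monocyte-like cells the count lower was 3 at Leiden resolution 0.5, 2 at resolution 2.0, 14 with cell cycle genes kept in the clustering and 10 with MAFIA replicate 1 included. Genes higher in Xcr1+ than Cd209a+ cells were 6 at resolution 2.0 and 8 without the 309, 468 and 750 cells of highest doublet score. The cause was not tested.

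Leaving out 1 library gave 20 to 29 genes in Cx3cr1+ against Timd4+, 1 to 6 in monocyte-like against Cx3cr1+ (1 without Cd11cYFP replicate 1), 35 to 36 in Xcr1+ against Ccr7+, 6 to 19 in Xcr1+ against Cd209a+ (6 without either Cd11cYFP replicate, 19 without MAFIA replicate 2), 34 to 35 in Cd209a+ against Ccr7+, 26 to 33 in thymocyte-like against B cell-like cells and 38 to 38 in both splits. The 6 orderings of replication-high shares held under every alternative run. Without the replicate block, 26, 3, 35, 7, 35 and 30 genes were called in the 6 comparisons (Cx3cr1+ against Timd4+, monocyte-like, Xcr1+ against Ccr7+, Xcr1+ against Cd209a+, Cd209a+ against Ccr7+, thymocyte-like) and 38 in the split of Xcr1+ and 36 in that of Cx3cr1+ cells.

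Depth limits single genes in small sums: in unmarked Cx3cr1+ macrophage-like cells Rrm2 rested on 10, 3 and 1 UMIs. Residual degrees of freedom of 2 in the splits make their errors uncertain.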
